A study of Mus musculus with 4 samples.

Results

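The vascular endothelial growth factor (VEGF) system was followed in the open chromatin of mouse glioblastoma through 9 genes: the ligands Vegfa, Vegfb, Vegfc and Pgf, the receptors Flt1, Kdr and Flt4, and the co-receptors Nrp1 and Nrp2. They are 9 of 21951 protein-coding genes of the GENCODE M21 annotation and were listed by name, with earlier results of these data known. For each gene, peaks were read at the promoter, taken as 1000 bp on either side of any annotated transcription start, and over the gene body with 20 kb flanks. These 9 loci covered 1014.891 kb and held 74 of the 122166 regions obtained by merging the peaks of all 4 libraries.

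The libraries came from an assay for transposase-accessible chromatin (ATAC-seq), in which a transposase inserts adapters where DNA is not packed in nucleosomes. The same mG7080 cells, a murine glioblastoma line that the study's methods trace to spontaneous tumors of genetically altered mice, formed tumors in the brains of every host. The WT group was 2 tumors in C57BL/6 hosts with an intact Esm1 gene, and the KO group was 2 tumors in C57BL/6 hosts labelled ESM1-KO. Esm1 encodes Endocan, a secreted proteoglycan of sprouting endothelial cells that VEGF signaling is known to induce, and the comparison asks whether chromatin in the tumor differs when the host cannot make it. The methods give hosts a few weeks old at injection, and whether whole tissue or cells taken from the tumors entered the assay differs between the labels and the methods. No library had a peak at the promoter or anywhere over the body of Esm1, so the genotype could not be checked in these data.

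VEGF ligands are secreted factors that make vessels sprout and leak. Their receptors are tyrosine kinases found mainly on endothelial cells of blood and lymph vessels, and neuropilins hold ligand and receptor together while also binding semaphorins on neurons and glia. In glioblastoma, oxygen-starved tumor cells are a known source of Vegfa, which acts on the receptors of the nearby vessels. The mixed origin of these signals matters for bulk libraries: fewer cells of a type and less open chromatin per cell cannot be told apart.

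Peaks numbered 63000 and 100088 in WT replicate 1 and 2 and 82975 and 85418 in KO replicate 1 and 2, and values are given in that order throughout. The height of a peak is the coverage counted at its summit, recovered as a whole number from the deposited fold and p-value. It is given in read ends only as a label, since those values do not show whether ends, extended reads or whole fragments were counted. The lowest background in a library, 4.41, 6.85, 6.03 and 6.71 read ends, served as a measure of depth, so WT replicate 2 was 1.55 times as deep as WT replicate 1. Defining endothelial markers were scarce: 2, 4, 2 and 4 of 12 had a promoter peak, and Pecam1, Cdh5, Tek, Tie1, Emcn and Robo4 had none in any library. Mural cell markers had one at 4, 8, 4 and 6 of 10 genes, microglia and macrophage markers at 1, 3, 2 and 2 of 10, astrocyte markers at 7, 7, 7 and 6 of 8, oligodendrocyte precursor markers at 7, 5, 7 and 8 of 8, and neuron markers at 8, 7, 7 and 7 of 8. WT replicate 1 stood apart in mature oligodendrocyte markers, with 7 of 8 open against 2 of 8 in each of the others.

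The description of the loci turns on a few sequences, each up to 200 bases around a summit in GRCm38.p6 (the mm10 build of the peak lists), read along the strand of the gene. They are the promoter summits of Vegfa, Vegfc and Kdr, the intron region of Flt1 that was open in every library although its promoter was not, the tallest intron region of Nrp1, and 3 of the 4 regions that were open in both libraries of only 1 genotype. Capitals mark matches, on either strand, to the motif letters searched: ACGTG or its variant form GCGTG (cores bound by hypoxia-inducible factors), CACGTG (the E-box of MYC, which contains ACGTG on both strands), GGGCGG (the GC box), CCGGAA (ETS), TGANTCA (AP-1), ACAAAG (SOX), TGTTTAC (FOX), AGATAA (a motif of GATA factors), GGAATG (TEAD) and CATATG (the E-box of OLIG and NEUROD). Bases of untranslated exons were left out.
Vegfa promoter, chr17:46032370-46032564, minus strand, open in all libraries: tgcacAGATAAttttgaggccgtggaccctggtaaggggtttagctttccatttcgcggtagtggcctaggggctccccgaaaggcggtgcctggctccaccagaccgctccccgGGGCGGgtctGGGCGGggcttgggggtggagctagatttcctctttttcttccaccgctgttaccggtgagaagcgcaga
Vegfa upstream region, chr17:46051599-46051798, minus strand, WT-only: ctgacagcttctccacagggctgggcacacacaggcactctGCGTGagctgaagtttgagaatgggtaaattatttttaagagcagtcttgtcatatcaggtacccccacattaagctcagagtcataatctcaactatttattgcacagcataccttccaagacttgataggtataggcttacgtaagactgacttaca
Vegfc promoter, chr8:54077089-54077288, plus strand, open in all libraries: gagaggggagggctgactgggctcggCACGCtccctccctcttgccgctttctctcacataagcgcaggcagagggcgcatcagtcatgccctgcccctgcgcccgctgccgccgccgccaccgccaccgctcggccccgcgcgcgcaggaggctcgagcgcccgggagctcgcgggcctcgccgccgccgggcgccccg
Vegfc intron region, chr8:54096267-54096466, plus strand, KO-only: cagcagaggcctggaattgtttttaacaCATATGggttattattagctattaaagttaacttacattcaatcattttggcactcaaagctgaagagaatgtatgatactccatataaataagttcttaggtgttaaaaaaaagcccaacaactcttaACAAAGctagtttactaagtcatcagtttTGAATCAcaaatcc
Flt1 intron region, chr5:147707515-147707714, minus strand, open in all libraries: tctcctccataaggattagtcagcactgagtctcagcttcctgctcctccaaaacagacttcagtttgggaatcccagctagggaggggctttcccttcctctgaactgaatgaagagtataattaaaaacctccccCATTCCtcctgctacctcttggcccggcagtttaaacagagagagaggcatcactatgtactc
Kdr promoter, chr5:75977938-75978137, minus strand, open in all libraries: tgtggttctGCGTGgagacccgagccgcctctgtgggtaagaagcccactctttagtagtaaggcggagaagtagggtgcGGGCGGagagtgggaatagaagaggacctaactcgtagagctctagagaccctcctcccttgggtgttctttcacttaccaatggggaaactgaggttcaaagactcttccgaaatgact
Nrp1 intron region, chr8:128415910-128416109, plus strand, open in all libraries: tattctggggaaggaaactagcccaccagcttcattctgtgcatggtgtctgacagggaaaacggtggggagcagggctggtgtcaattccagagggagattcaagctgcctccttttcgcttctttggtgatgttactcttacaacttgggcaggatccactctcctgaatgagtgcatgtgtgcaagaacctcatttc
Nrp2 exon region, chr1:62783415-62783614, plus strand, WT-only: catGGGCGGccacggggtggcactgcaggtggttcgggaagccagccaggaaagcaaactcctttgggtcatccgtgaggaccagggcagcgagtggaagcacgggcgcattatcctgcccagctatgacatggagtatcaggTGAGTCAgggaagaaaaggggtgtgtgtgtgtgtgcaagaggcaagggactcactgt

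The Vegfa promoter window held 2 GC boxes and a GATA match but neither hypoxia core, while the Kdr window held a GCGTG core and a GC box. The WT-only region upstream of Vegfa had a single GCGTG core. The KO-only region of Vegfc held no CpG and had an AP-1, a SOX and an OLIG/NEUROD match. Across the 11 promoter regions of the 9 genes, 3 held GCGTG (27.3%, against 36.4% of 19574 promoter regions), 1 held ACGTG (9.09% against 16.6%) and 5 held the GC box (45.5% against 44.7%). In the 56 regions of the loci away from promoters of protein-coding genes, ACGTG occurred in 11 (19.6%, against 11.2% of 102523 such regions), GCGTG in 8 (14.3% against 14.1%), the TEAD letters in 12 (21.4% against 12.1%) and the AP-1 letters in 6 (10.7% against 13.3%). These shares are a description of letters in 200-base windows and were not tested.

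Promoters of 7 of the 9 genes were open in all libraries, among them all ligands, both neuropilins and Kdr. Genome-wide, 90.3% of the 15150 genes with a promoter peak in any library were open in all. Flt1 and Flt4, the receptors of Vegfb and Pgf and of Vegfc, had a promoter peak in WT replicate 2 and KO replicate 2 only, a pattern found at 0.752% of genes. No member had a WT-only promoter, meaning a peak in each WT library and in no KO library (0.211% of genes), and none had a KO-only one (0.409%). Thus, with any annotated start counted, the differences in promoter presence ran between replicates and not between genotypes. Pgf was open in all libraries only at an internal start. It counted as KO-only when only starts of coding transcripts were used, as did 0.425% of 14824 genes.

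**Figure D1:**
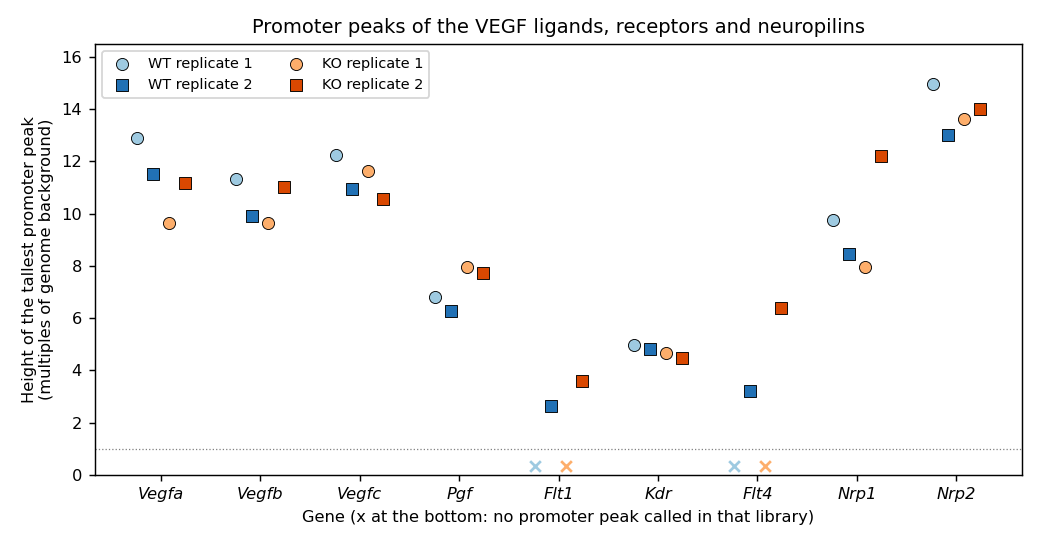
Height of the tallest promoter peak of each gene (vertical axis, in multiples of the genome background of the library) in the 4 libraries, with a cross where no promoter peak was called; the dotted line is the background itself. Neuropilin and most ligand promoters lie well above Kdr, which sits between 4.47 and 4.98 in every library, and Flt1 and Flt4 have crosses in WT replicate 1 and KO replicate 1.

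Vegfa, the main driver of vessel sprouting and permeability, had promoter heights of 57, 79, 58 and 75 read ends, or 12.9, 11.5, 9.63 and 11.2 times the genome background. Both KO libraries were below both WT libraries on this scale. After centering each library on its median promoter, KO was lower by a log2 difference of -0.13 (SE 0.15, limma adjusted p = 0.998), which was not called. On this scale the WT libraries differed from each other by 0.05 and the KO libraries by 0.16, and the groups did not overlap. Centered on the median region of each library instead, the log2 heights were 0.93, 0.66, 0.50 and 0.80, and the groups overlapped. The shape of the signal also differed. In WT replicate 1 and WT replicate 2 a single peak of 2462 and 2484 bp (chr17:46030488-46032949 and chr17:46030512-46032995) ran over all 4 annotated starts of coding transcripts. KO replicate 1 and KO replicate 2 had a break there, with a tallest peak of 796 and 855 bp at the outermost start and a separate peak inside the gene, of 46 and 65 read ends. One merged peak in each WT library against 2 or more in each KO library was seen at 0.414% of the 48089 regions open in all libraries, and the reverse at 0.079%. This pattern was singled out after its values were seen, it was found at 1 of the 24 regions of the loci open in all libraries, and it was not tested.

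Vegfb, a ligand of Flt1 linked to vessel survival and lipid handling, had heights of 50, 68, 58 and 74 read ends. The log2 difference of KO from WT was 0.06 (SE 0.16) and its sign turned with genome background scaling, as did those of Vegfc, Kdr and Nrp2. Vegfc, the ligand of Flt4 best known for lymphatic growth, had 54, 75, 70 and 71 read ends and a log2 difference of 0.04 (SE 0.15). Its promoter was the most enriched of the 9 over its own surroundings, with deposited folds of 6.66, 5.71, 6.81 and 6.86, which ranked at percentiles 88.7, 87.0, 93.9 and 95.3 of the peaks in their lists. In both genes the libraries of the genotypes overlapped.

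Pgf, placental growth factor, which acts through Flt1, was open in all libraries only at an internal start of a retained-intron transcript. That start lies 7895 bases inside the gene, and the region at it was chr12:85169203-85170430. Heights there were 30, 43, 48 and 52 read ends. Relative to library depth both KO libraries lay above both WT libraries, with a log2 difference of 0.37 (SE 0.23, 95% interval -0.10 to 0.85, limma adjusted p = 0.998). No WT library had a peak within 1000 bp of the starts of its coding transcripts. KO replicate 1 had a peak of 20 read ends over such a start, at chr12:85177145-85177426. KO replicate 2 had a different one of 33 read ends at chr12:85175926-85176300, with its summit beside a retained-intron start, and only the edge of this peak reached the window of a coding start. When only coding starts define promoters, Pgf therefore counts as KO-only, as do 0.425% of 14824 genes, although the peaks behind that call do not overlap and 1 of them rests on the window edge.

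Flt1, a high-affinity receptor with a weak kinase that also traps ligand, had a promoter peak of 18 read ends in WT replicate 2 and 24 in KO replicate 2. These were 2.63 and 3.58 times the genome background, near the lowest heights called in those libraries, 16 in each. Scaled to the depth of WT replicate 1, the heights would be 11.6 and 15.8 read ends, where the lowest height called was 13. Scaled to KO replicate 1 they would be 15.8 and 21.5, where it was 15. Of these 4 scaled heights 1 was below the lowest height called and 3 were above it, and the part of depth in the missing peaks was not tested.

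Flt4, the receptor of lymphatic and sprouting endothelium, had 22 read ends in WT replicate 2 and 43 in KO replicate 2. Scaled to WT replicate 1 these would be 14.2 and 28.3 read ends, and scaled to KO replicate 1 they would be 19.4 and 38.6. The larger of them was well above the lowest heights called anywhere in those libraries, and the part of depth in the missing Flt4 peaks was not tested. The same libraries, WT replicate 2 and KO replicate 2, were those with a promoter peak at 4 of 12 endothelial markers: Cldn5 and Sox17 were open in the former, and Erg and Eng in the latter, beside Egfl7 and Esam in all. The part of endothelial content in the Flt1 and Flt4 peaks was not tested. Absence of a called peak is not a height of 0. With -log10 q of at least 5, both promoters were open in KO replicate 2 alone.

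Kdr, the main signaling receptor for Vegfa on blood vessels, had the lowest promoter heights of the genes open in all libraries, at 22, 33, 28 and 30 read ends. Relative to depth this was 4.98, 4.82, 4.65 and 4.47 times the background, at the 4.75, 8.18, 7.12 and 6.13 percentile of promoter peaks. The libraries were close to each other, and the log2 difference was 0.00 with a wide interval (95% interval -0.60 to 0.60, limma adjusted p = 0.999). The summits lay 231 to 421 bp inside the gene.

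Nrp1, which presents Vegfa to Kdr and semaphorins to plexins, had promoter heights of 43, 58, 48 and 82 read ends. The 82 came from a separate peak with its summit 1.18 kb upstream of the outermost start, where WT replicate 1 and 2 had peaks of 34 and 41 read ends. The peak of KO replicate 2 over the starts, where the other heights were read, had 69. For the tallest peaks, on the centered log2 scale the KO libraries differed by 0.56, more than the 0.23 (SE 0.20) between genotypes, and without KO replicate 2 the latter was -0.06. Nrp2, which binds Vegfc and other semaphorins, had the tallest promoter of the 9 genes in every library, at 66, 89, 82 and 94 read ends. Its log2 difference was 0.09 (SE 0.11). Both KO libraries lay above both WT libraries when centered on the median promoter of each library. They did not when centered on the median region or scaled by genome background.

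Across the 7 promoters with a height in all libraries, none was called by limma, and none had an unadjusted p under 0.05. Genome-wide 2 of 13675 promoters were called (0.0146%) and 522 had an unadjusted p under 0.05. The median log2 difference of the 7 promoters was 0.06, beside -0.0048 for all promoters. Both KO libraries lay above both WT libraries at 2 of the 7, Pgf and Nrp2, and below at 1, Vegfa, while these orders held at 14.9% and 16.2% of all promoters tested. The intervals leave room for changes of the size seen for Pgf in either direction at Kdr, so a small difference was not detectable with 2 tumors per group.

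**Figure D2:**
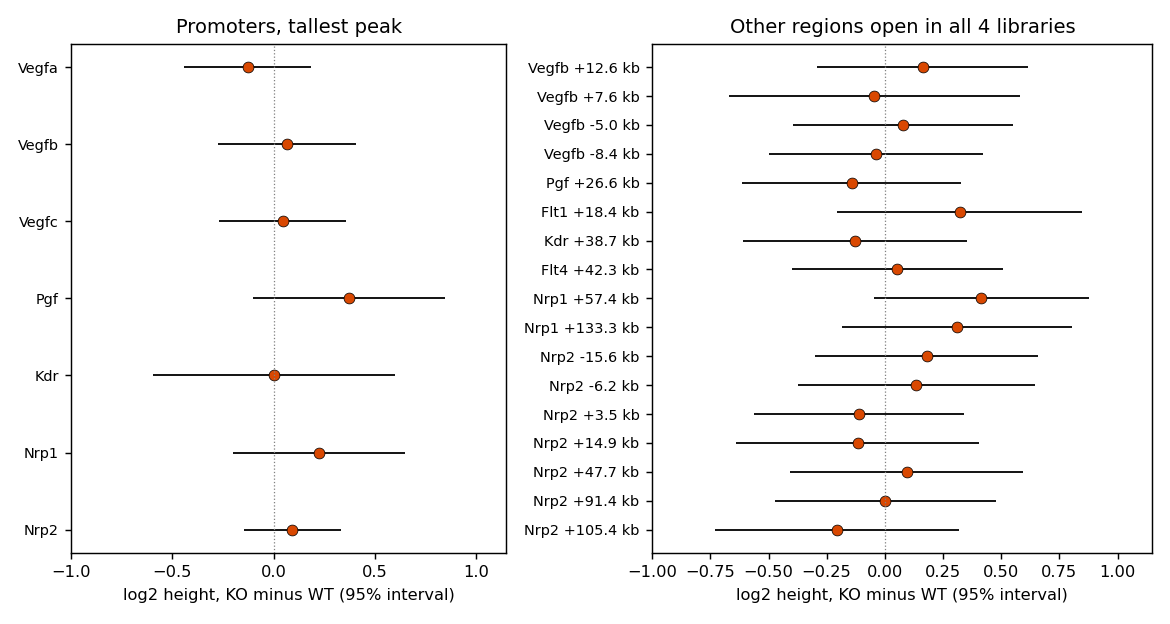
Difference in centered log2 peak height, KO minus WT (horizontal axis), for the 7 promoters with a peak in all libraries on the left and the 17 other regions of the loci open in all libraries on the right, named by gene and distance from the outermost start in kb. Points are limma estimates and lines are 95% intervals; every interval includes 0, with the largest estimate, 0.42, in an intron of Nrp1.

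CpG, the dinucleotide that is dense at many constitutively open promoters, varied among the 9. Within 500 bp of the outermost start, the ratio of observed to expected CpG was 0.70 for Vegfa, 0.71 for Vegfb, 0.87 for Vegfc, 0.43 for Pgf, 0.81 for Flt1, 0.67 for Kdr, 0.81 for Flt4, 0.58 for Nrp1 and 0.83 for Nrp2. The median was 0.72 for the 13675 genes open in all libraries, 0.34 for 1475 open in some and 0.17 for 6788 open in none. Vegfc, Flt1, Flt4 and Nrp2 lay above that first median and the other 5 below it. Flt1 and Flt4 thus had CpG ratios above the median of genes open everywhere, while their peaks were those of genes open in some libraries.

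Over gene bodies and flanks, 24 of the 74 regions were open in all libraries (32.4%, against 39.4% of all regions) and 24 in a single library (32.4% against 29.0%). There were 3 WT-only regions, against a background of 1.45%, and 1 KO-only region, against 1.66%. WT replicate 1 lacked 12 regions that the other libraries shared (16.2%, against 12.1% of all regions). The loci held 33, 56, 43 and 54 regions in the libraries, or 0.0542%, 0.0562%, 0.0527% and 0.0649% of the regions of each. The median local background at called peaks within 500 kb of each gene was 1.00 to 2.32 times the genome background. Its KO mean differed from the WT mean by -0.099 to 0.13, though the peaks read were not the same in each library.

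**Figure D3:**
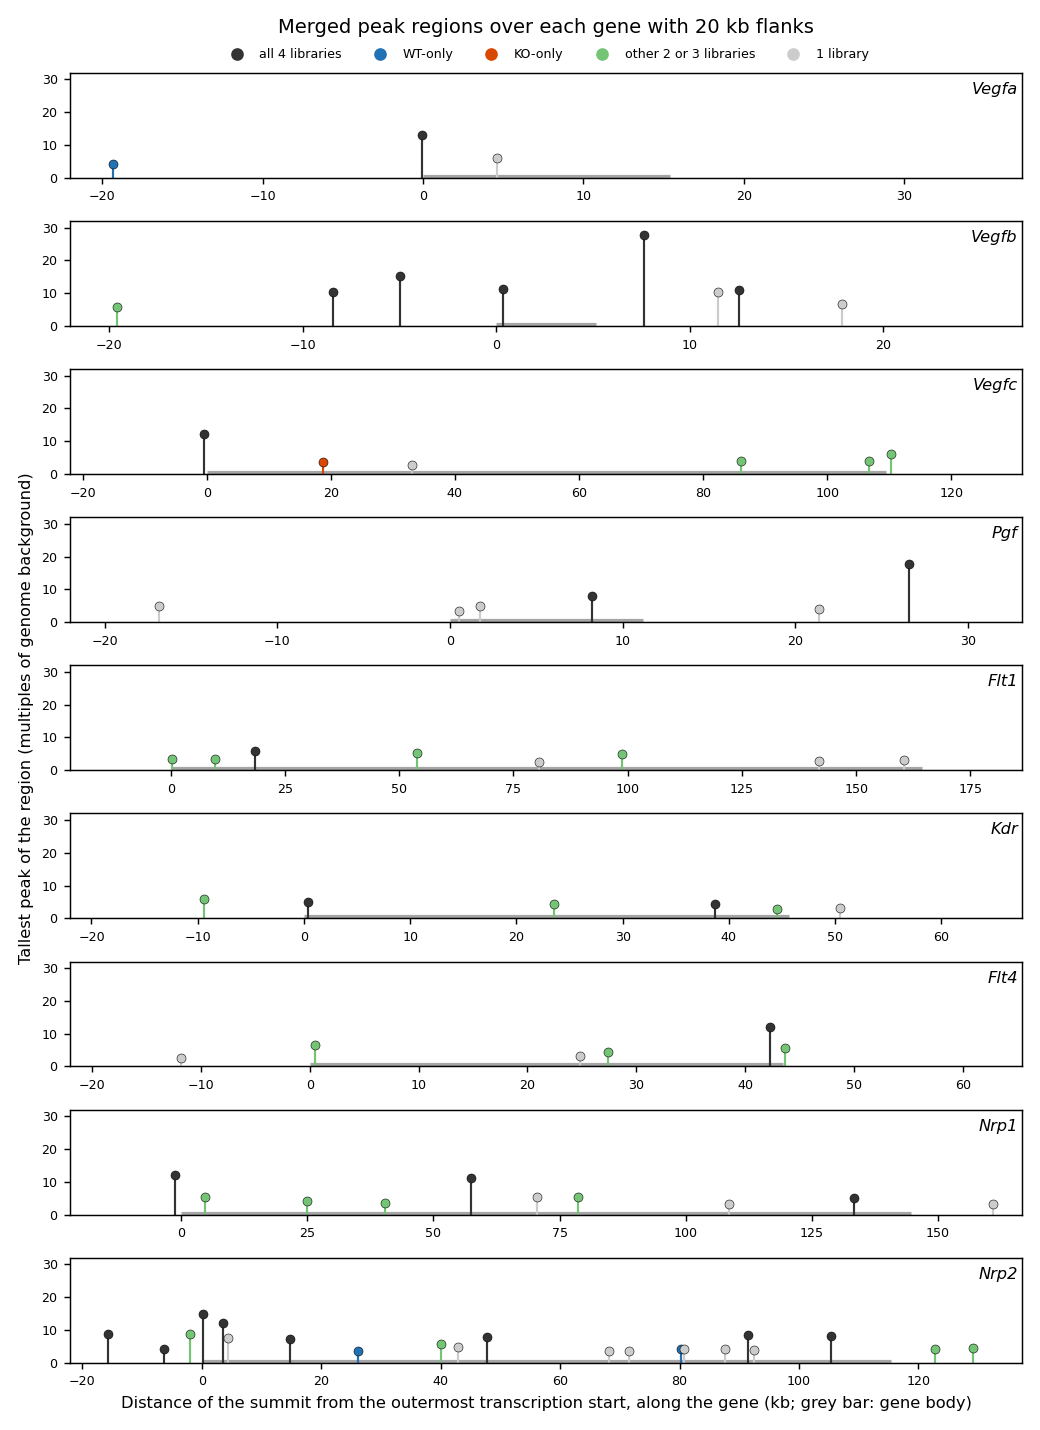
Merged regions at each locus, by distance of the summit from the outermost start along the gene (kb) and by the tallest height of the region in any library (multiples of genome background); colors give the libraries in which a region was open and the grey bar is the gene body. WT-only regions appear at Vegfa and Nrp2 and the KO-only region in Vegfc, all of them low beside the promoters, while the tallest region, near 7.61 kb at Vegfb, is the promoter of a neighboring gene.

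Among the ligands, 23 regions were found and 9 were open in all libraries, but none of these 9 lay away from the promoters of protein-coding genes. The Vegfa locus had 3 regions. One was the promoter, 1 was an intron peak of 40 read ends in KO replicate 2 only, and 1 was the WT-only region 19.3 kb upstream at chr17:46051385-46051866, with 18 read ends in WT replicate 1 and 24 in WT replicate 2. Requiring -log10 q of 5 or more kept it in WT replicate 2 alone. Taking the 63000 top peaks of each library kept it in WT replicate 1 alone, so its call was not stable. That number was the full list of WT replicate 1, which could therefore lose no peak.

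The Vegfb locus is gene-dense, and 6 of its 8 regions lay at promoters of Plcb3, Ppp1r14b, Fkbp2, Dnajc4, Nudt22 or Trpt1. The Fkbp2 promoter 7.61 kb from the Vegfb start was the tallest region of all loci open in all libraries, at 123, 160, 151 and 144 read ends. In Vegfc, 4 of the 6 regions were in introns. The KO-only one, 18.8 kb inside the gene at chr8:54096187-54096429, had 23 read ends in KO replicate 1 and 21 in KO replicate 2, and kept a peak in KO replicate 1 alone at the stricter q or with equal numbers of peaks. The remaining Vegfc regions included 2 that lacked only WT replicate 1. At Pgf, the only other region open in all libraries was the promoter of Rps6kl1, 26.6 kb from the Pgf start.

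The receptors had 20 regions with 4 open in all libraries, beside 9 of 23 at the ligands and 11 of 31 at the neuropilins. Away from promoters of protein-coding genes, 3 of 17 receptor regions were open in all libraries. The ligands had 0 of 10 such regions open in all and the neuropilins 9 of 29. The order of receptors and ligands thus turned when promoters of protein-coding genes were left out, on 17 and 10 regions. The share of all regions away from such promoters that were open in all libraries was not computed. The 39.4% given above includes promoter regions. By library the receptor regions numbered 5, 19, 10 and 15, with WT replicate 1 the lowest and WT replicate 2 the highest. The spread within WT was thus wider than the difference between genotypes. WT replicate 1 was also the lowest at the ligands, with 10, 16, 15 and 17 regions. It shared the lowest count at the neuropilins, with 18, 21, 18 and 22. WT replicate 1 lacked 6 receptor regions that the others shared. Across the 12 such regions of all loci, heights scaled to the depth of WT replicate 1 were 13.2 to 26.4 read ends, all above its lowest height called, 13. That lowest height is taken over the whole library, and a peak over a higher local background must be taller to be called. The part of depth in these absences was not tested. Mural markers were likewise open most often in WT replicate 2, at 8 of 10 genes, and their part in the receptor regions was not tested.

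In Flt1, an intron region 18.4 kb inside the gene (chr5:147707503-147707882) was the only one open in every library, at 21, 28, 36 and 30 read ends. Its log2 difference was 0.32 (SE 0.27). Another 3 Flt1 introns were open everywhere but in WT replicate 1, the tallest of them, 53.8 kb inside the gene, at 34, 32 and 28 read ends. Thus Flt1 showed open chromatin in its introns in libraries where its promoter had no peak. In Kdr, the tallest region outside the promoter that was open in all libraries lay in an intron 38.7 kb inside the gene (chr5:75939243-75940281), with 17, 29, 22 and 22 read ends. Both KO libraries were below both WT libraries relative to depth there, by a log2 difference of -0.13 (SE 0.25). In Flt4, the region 42.3 kb inside the gene at chr11:49650907-49651845, which overlaps an exon near the end of the gene, reached 37, 82, 64 and 60 read ends. It was taller than the Flt4 promoter in both libraries that had one, and its log2 difference was 0.05 (SE 0.23).

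Nrp1 had 10 regions, 7 of them in introns, with 3, 7, 7 and 9 open by library. The tallest outside the promoter, 57.4 kb inside the gene at chr8:128415627-128416610, had 30, 64, 68 and 59 read ends. Its log2 difference of 0.42 (SE 0.23, 95% interval -0.05 to 0.88, limma adjusted p = 1.00) was the largest at any locus and was not called. Both KO libraries lay above both WT libraries after centering on the median, though not in multiples of genome background, and WT replicate 1 was the low one.

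Nrp2 had the most regions, 21, of which 8 were open in all libraries. It was the only one of the 9 loci where WT replicate 1 alone had the most regions: 15, 14, 11 and 13 by library. The tallest outside the promoter, 3.53 kb inside the gene at chr1:62705691-62707365, had 53, 83, 60 and 74 read ends and a log2 difference of -0.11 (SE 0.23). The WT-only regions lay 26.2 kb inside the gene in an intron (chr1:62729351-62729717), with 16 and 24 read ends, and 80.2 kb inside over an exon (chr1:62783246-62783860), with 19 and 24. Neither had a peak in any library under the stricter q. Each was open in WT replicate 1 alone when peak numbers were made equal, a setting that drops no peak of that library. Beside the exon region, KO replicate 2 had a peak of 28 read ends at chr1:62783955-62784276.

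**Figure D4:**
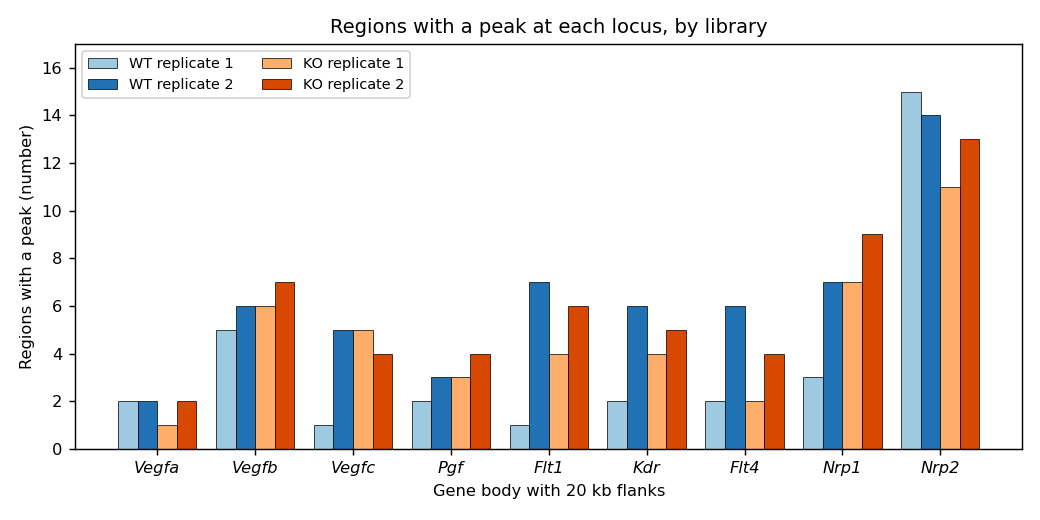
Number of merged regions with a peak over each gene body with 20 kb flanks, one bar per library. WT replicate 1 alone has the shortest bar at Vegfb, Vegfc, Pgf, Flt1 (1, against 7 in WT replicate 2), Kdr and Nrp1. It has the shortest together with KO replicate 1 at Flt4, and the longest at Nrp2, 15.

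Of the 24 regions of the loci with a height in all libraries, none was called by limma and none had an unadjusted p under 0.05. Across all regions 19 of 48089 were called (0.0395%) and 1480 had an unadjusted p under 0.05. The log2 differences of the 24 ran from -0.20 to 0.42, with a median of 0.05 beside -0.0041 for all regions. Both KO libraries lay above both WT libraries at 5 and below at 1, orders that held at 12.8% and 13.3% of all regions tested. With 2 tumors per group an exact permutation test could not give a p below 0.333, so presence and absence of peaks were not tested.

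Genes that act with the VEGF system were mostly open in every library. Genome-wide this held for 13675 of 21951 protein-coding genes, or 90.3% of the 15150 with a promoter peak in any library. The 90.3% leaves out genes open in none, which the counts below include. Of 12 semaphorins and plexins that share the neuropilins, 11 were open in all, as was Vegfd, a further ligand of Flt4. Of 14 relay proteins that carry receptor signals, 12 were open in all, and the exceptions, open in none, were Sh2d2a (an adaptor of Kdr) and Nos3 (the endothelial nitric oxide synthase). All 8 genes of oxygen sensing, which control Vegfa transcription, were open in all. Among these, none was WT-only, KO-only or called by limma in either direction. Median log2 differences were -0.0043 over the 11 neuropilin partners, 0.02 over the 12 relay genes and 0.14 over the 8 oxygen sensing genes, beside -0.0048 for all promoters.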

How the data were processed

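ATAC-seq peak lists of 2 WT and 2 ESM1-KO tumors were used, with groups from the sample titles. The file of KO replicate 2 is named on another pattern than the other 3, which the labels do not explain. The authors deposited 1 list per library, so peaks were not pooled. MACS2, HOMER and mm10 stand in the submitters' processing notes, without versions, whereas the study's methods name Bowtie2 and Genrich, and the lists follow the MACS2 layout. Per deposited peak the columns hold a score, a fold over its local background (a ratio), and 2 −log10 columns, for the p-value and the q-value. A shift of reads for the transposase was not given in the sources used here. The files give no read counts. Heights were computed from the deposited fold and −log10 p, since the fold is (height + 1)/(background + 1) and p is a Poisson tail. They matched within 0.001 for 331479 of 331481 peaks. Depth was taken as the lowest background of each library.

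Peaks sharing 1 bp were merged. limma 3.58.1 (R 4.3.3) was fitted to log2 height of all 13675 promoters and 48089 regions with a peak in every library, centered on library medians, with a mean-variance trend and Benjamini-Hochberg adjustment at 0.05. It cannot see loss of a peak. The p-values rest on the spread between these tumors, which limma shared across features of like mean height. At promoters the SE was mostly shared in this way and says little of a promoter's own spread. At regions it was almost wholly so, and an SE or p-value there does not measure the region's own spread. Scripts ran in Python 3.11.15 with pandas 2.3.3, scipy 1.17.1 and pysam 0.24.0, and height recovery and the limma step were tested on simulated data. The members, marker and pathway lists and motifs were chosen with earlier results of these data known. All 9 genes are named, with every WT-only or KO-only region and the tallest region open in all libraries outside the promoter. Other regions named were chosen after their values were seen. Alternatives were other windows, flanks, starts, thresholds, equal peak numbers, overlap, scaling, the deposited fold, no trend, a replicate block and leaving out each library. The sequence of 1 region is not reported here.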

Additional observations from a re-analysis of the deposited data

How the results depend on the processing

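No member and no locus region was called by limma under any alternative run, and the lowest adjusted p of a member promoter was 0.287. KO-only members rose from 0 to 1 (Pgf) with starts of coding transcripts only. WT-only regions fell from 3 to 0 when −log10 q had to reach 5 and likewise when peak numbers were made equal, and KO-only regions from 1 to 0 when −log10 q had to reach 5. Leaving out each library in turn gave 3 to 12 WT-only regions (12 without WT replicate 1, 5 without WT replicate 2 or KO replicate 2) and 1 to 13 KO-only regions (13 without WT replicate 2, 12 without KO replicate 1, 3 without KO replicate 2). The call then needs only the other library of that group, and a peak in the library left out no longer counts against it. Of 63 log2 promoter differences under alternatives, 10 changed sign. Scaling by genome background moved the median of all promoters to -0.11 and gave -0.042 for Vegfb, -0.062 for Vegfc, -0.10 for Kdr and -0.014 for Nrp2, each above that median. The deposited fold gave -0.0030 for Vegfb. Leaving out a library gave -0.079 to 0.084 for Kdr, -0.061 to 0.13 for Vegfc, -0.012 to 0.13 for Vegfb and -0.062 (without KO replicate 2) to 0.50 (without KO replicate 1) for Nrp1. The number of promoters called genome-wide was 171 without KO replicate 1, 10 with genome background scaling, 0 with the fold or no trend, 4 at the stricter q, 1 without WT replicate 1 and 13 without KO replicate 2, against 2. The number of regions was 56 and 48 without WT replicate 1 and 2, 70 and 7 without KO replicate 1 and 2, 8 with the fold and 10 at the stricter q, against 19. Tumor numbers are shared between groups but nothing in the labels pairs them, and deviations of same-numbered tumors correlated at -0.21 over promoters and -0.34 over regions. With a replicate block, 0 members and 0 locus regions were called, of 10 promoters and 10 regions called in all. The cause of these shifts was not tested. No peak lower than 13, 16, 15 and 16 read ends was listed in the libraries, so lower signal was not detectable.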
